A study of Drosophila melanogaster with 24 samples.

Results

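The transcripts described here come from 10 genes of egg making, egg patterning and egg activation in *Drosophila melanogaster*: *osk*, *nos*, *vas*, *bcd*, *swa*, *exu*, *stau*, *gnu*, *png* and *otu*. They were chosen by name, with earlier results of these data known. Every probe set of the array that the platform annotation paired with 1 of these genes and no other was read on all 24 arrays. This gave 14 probe sets of 18769 that were not array controls, with 3 for *osk*, 2 each for *bcd* and *exu* and 1 for each of the other genes. Of these, 13 probe sets of 9 genes were among the 11857 that reached a Signal of at least 50 on at least 12 arrays and were tested. The probe set of *vas* fell short of that limit. A further probe set, paired with *vas* and another gene, was left out.

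The arrays measured RNA of whole flies from 6 lines that had been derived from a natural population collected at Raleigh. R1 and R2 had been selected for resistance to alcohol and S1 and S2 for sensitivity, by the flies' performance in an inebriometer, and C1 and C2 were kept without selection. The paper set up 2 replicates of the base population and started a line of each regime from each of them. The line numbers follow these replicates. RNA was taken at generation 25 from virgin flies 3 to 5 days old, in 2 pools of 15 flies for each sex of each line, which gives 12 female and 12 male arrays. The labels state for all samples, controls included, that the flies met ethanol vapor before extraction. The paper's methods for the arrays do not mention such an exposure. Each selection regime was thus represented by 2 lines, and the errors below measure the spread between pools of a line, not the spread between lines.

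In the fly ovary, nurse cells fill the oocyte with mRNAs and proteins that direct the embryo before its own genome is active. Some of these mRNAs are carried to one end of the oocyte and held there, so that *bcd* product marks the future head and *osk* and *nos* products the future abdomen and germ cells. Translation and the cell cycle are held back until egg activation, when a kinase complex that includes the *png* and *gnu* products releases them. The ovary makes up much of the body of a mature female, and whole-body RNA of females therefore holds a large share of such messages. In bulk samples of this kind, fewer germline cells and less RNA per cell cannot be told apart.

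Signal is the MAS5 summary of a probe set's brightness, scaled so that the trimmed mean of each array was 500. The median Signal over all probe sets was 55.74 to 81 on female arrays and 130.9 to 149.8 on male arrays, so a sex difference is relative to the rest of the array. Quantile normalization over all arrays moved the median sex difference of all tested probe sets from 0.04 to 0.22 on the log2 scale. The 2 pools of a line correlated at 0.958 to 0.974 in females and 0.978 to 0.986 in males. The pools of S1 females differed most. Levels are compared between samples only, since probe sets differ in how brightly they report a transcript.

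The first comparison asked how the transcripts differed between females and males over all lines. Of the 9 genes tested, 8 were higher in females at an adjusted p below 0.001 (limma, Benjamini-Hochberg) and none was higher in males, judged by the probe set of each gene with the highest mean log2 Signal over the 24 arrays. Over all tested probe sets 42.3% were called higher in females and 36.0% higher in males. For 7 of the genes the male arrays were below the limit of 50 (in *swa*, 10 of 12 of them), so they passed the filter through the female arrays and had to differ. The exceptions were *exu* and *stau*, which were above 50 on all 24 arrays.

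Among the genes of the posterior pole, *osk*, which starts the assembly of the germ plasm, had a Signal of 5481.1 to 7741.3 in females with a median of 6676.7. In males the same probe set read 2.117 to 27.03, with a median of 9.109. Its other probe sets read 8167.7 to 10666.6 and 6802.5 to 9854.5 in females, and no male array exceeded 21.83 on either. The sexes were thus far apart on all 3. The fitted difference was 9.42 ± 0.219 (SE) on the log2 scale (adjusted p = 1.8e-16), but male values this low carry mostly noise. With every value below 50 raised to 50, the Signal of *osk* was at least 132-fold higher in females.

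The *nos* product represses translation in the posterior of the embryo and is needed for the abdomen and the germline. Its Signal was 5881.5 to 9658 in females, with a median of 7874.2, and 5.565 to 45.71 in males, which makes it at least 152-fold higher in females (adjusted p = 3.35e-15). The third gene of the germ plasm, *vas*, encodes an RNA helicase that marks germ cells in both sexes. It read 48.93 to 89.6 in females and 1.956 to 48.4 in males, so that the sexes did not overlap but lay close to the limit used here. Its fit without the filter gave a female excess of 1.80 ± 0.332 on the log2 scale (adjusted p = 9.21e-05). All 12 male arrays were below 50, and with values below 50 raised to 50 the excess was only 0.57, or 1.49-fold. The annotation now lists *solo* as a gene overlapping *vas* at this locus, and the Signal cannot be assigned to one of them with certainty.

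**Figure D1:**
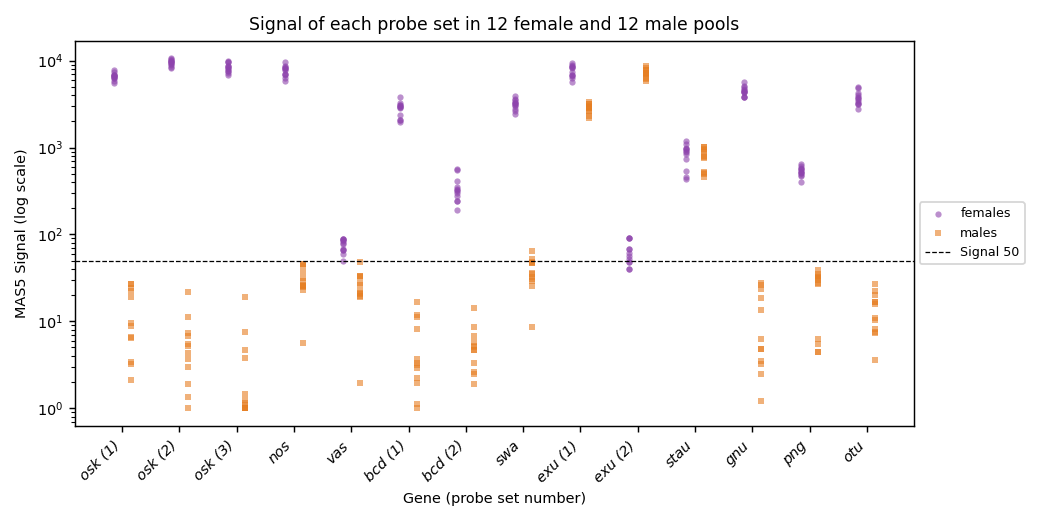
MAS5 Signal on a log axis for each of the 14 probe sets, with 1 point for each of 12 female pools (circles) and 12 male pools (squares); values below 1 are drawn at 1 and the dashed line marks a Signal of 50. Probe sets are numbered within a gene by their mean log2 Signal over the 24 arrays, males included. *stau* overlapped between the sexes, the other probe sets did not, and the second *exu* probe set was the only one brighter in males.

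The anterior genes encode the head-forming transcription factor itself and proteins that localize its mRNA. *bcd* read 1991.6 to 3823.8 in females, with a median of 2936.1, and no more than 16.71 in males, at least 55-fold apart (adjusted p = 1.76e-14). Its dimmer probe set read 192 to 560.4 in females and at most 14.08 in males. *swa*, whose product helps to anchor *bcd* mRNA at the anterior, read 2445.9 to 3923 in females and 8.651 to 65.21 in males, where 10 of 12 arrays were below 50. The female excess of *swa* was at least 61.2-fold (adjusted p = 2.56e-14).

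The genes of egg activation and of the germline itself were likewise below the limit of 50 on every male array. *gnu*, the activating subunit of the PNG kinase, read 3770.7 to 5636.8 in females and 1.217 to 27.88 in males, at least 89.4-fold apart (adjusted p = 5.13e-13). The kinase subunit *png* read 398.6 to 648.3 in females and 4.435 to 39.19 in males, at least 10.6-fold apart (adjusted p = 1.51e-17). *otu*, required for the growth and differentiation of female germ cells, read 2810.6 to 5002.1 in females and 3.602 to 27.08 in males, at least 74.2-fold apart (adjusted p = 2.88e-15). In each of these genes all 12 females were above all 12 males. With every male array below 50, the filter required all 12 female arrays to reach 50, so this order was fixed in advance. Of all tested probe sets 52.6% did not overlap between the sexes, in one direction or the other.

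The probe sets of *exu* went in opposite directions. *exu* is needed to localize *bcd* mRNA in the oocyte and also for the making of sperm, and it is known to yield mRNAs that differ between the female and the male germline. The first probe set read 5751.5 to 9371.1 in females with a median of 7887.3, and 2178.5 to 3368 in males with a median of 2880.4. On the other, the median was 59.03 in females, with a range of 39.58 to 91.34, against 7222.4 in males, with a range of 5864.4 to 8787. Neither overlapped between the sexes. The first probe set was 2.71-fold higher in females (1.44 ± 0.0628 on the log2 scale, adjusted p = 5.76e-13) and the second 119-fold higher in males (-6.90 ± 0.0837, adjusted p = 1.19e-19). With values below 50 raised to 50, the male excess of the second was at least 114-fold. Markers of testis summed to 53548 to 73151 in males and 272 to 512 in females. Which stretches of the transcripts the probes of either set match was not analysed here.

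**Figure D2:**
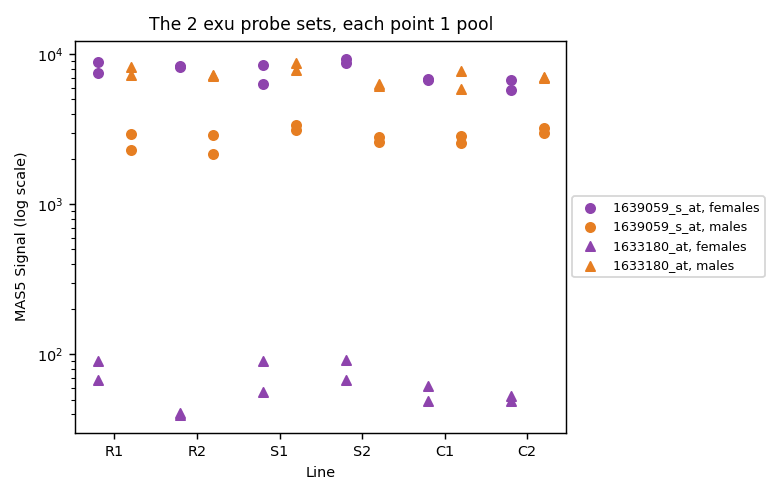
MAS5 Signal on a log axis of the 2 probe sets of *exu* by line, with 1 point for each pool, circles for the first and triangles for the second, and colour for sex. In every line the circles were higher in females and the triangles higher in males.

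*stau*, whose double-stranded RNA-binding product carries *osk* mRNA to the posterior and holds *bcd* mRNA at the anterior, was the gene without a called sex difference. It read 439 to 1174.2 in females, with a median of 908.4, and 460.5 to 1021.1 in males, with a median of 789.7. The difference was 0.12 ± 0.053 on the log2 scale (adjusted p = 0.0363), and -0.07 ± 0.0483 after quantile normalization over all arrays. The product is known to act in neurons as well as in the ovary.

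Other genes of the same processes, from lists assembled by function, showed the same direction in most cases. The counts below stand beside 42.3% of all tested probe sets called higher in females and 36.0% called higher in males. Of 14 genes of egg activation and the maternal cell cycle that were tested, 13 were higher in females, with a median difference of 4.33 on the log2 scale, or 4.19 with values below 50 raised to 50. For mRNA transport and translational control in the oocyte the count was 12 of 13 with a median of 0.88, and for dorsoventral and terminal patterning 11 of 13 with 1.65. Germ plasm and posterior patterning gave 9 of 12 higher and 2 lower, with a median of 2.14, and germline sex, stem cell and meiosis genes 12 higher and 2 lower of 14, with 1.86. The 9 genes described here had a median of 8.12, or 5.94 with values raised to 50, against 0.04 over all tested probe sets. Follicle cell genes for vitelline membrane and chorion were higher in females in 13 of 13 cases. The median log2 Signal of that list was 2.81 to 4.78 on male arrays, which is below a Signal of 50. Many of its genes thus passed the filter through the female arrays, which largely fixed their direction.

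The second comparison asked whether the lines differed. A line effect over both sexes was called at an adjusted p below 0.001 for 2 of the 9 genes, *stau* and *png*, against 12.3% of all tested probe sets. In females alone it was called for *stau* only, against 6.95% of all, and in males for *stau* and *png*, against 4.30%. The line by sex interaction was called for *png*, against 0.245% of all. In the other 7 genes no line effect was called, with adjusted p-values in females from 0.07 for *exu* to 0.999 for *gnu*. This fit took its error from both sexes. The error was wide for genes near 0 in males, so a line effect in females could hardly be called for them. From female arrays alone, the line effect of these 7 genes had adjusted p-values from 0.0647 for *bcd* to 0.278 for *gnu*, and none was called.

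In *stau* the line effect came with low levels in R2 and S2. Female pools read 742 and 541.3 in R2 and 455 and 439 in S2. The pools of the other female lines read 917.3 and 953.7 in R1, 1113.2 and 986.7 in S1, 899.4 and 839.8 in C1, and 1174.2 and 973.6 in C2. In males R2 read 511.4 and 518.8 and S2 read 460.5 and 492.9, while the other 8 male pools read 755.9 to 1021.1. R2 had been selected for resistance and S2 for sensitivity. In both sexes, nevertheless, each pool of R2 and S2 was below each pool of the other 4 lines, C2 included. Such a separation, looked for after the values of *stau* had been seen, was found in the same direction and in both sexes for 34 tested probe sets, or 0.287%.

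The line effect of *stau* had an adjusted p of 2.74e-07 over both sexes, 1.32e-05 in females and 4.15e-05 in males, and the interaction was not called (adjusted p = 0.243). Between lines of the same regime, S1 females were 2.34-fold higher than S2 females (1.23 ± 0.13 on the log2 scale, adjusted p = 8.14e-06) and R1 females 1.48-fold higher than R2 females (0.56 ± 0.13, adjusted p = 0.015). C1 females were lower than C2 females (-0.30 ± 0.13, adjusted p = 0.185), a call that was lost without any 1 of C1 females replicates 1 and 2 or C2 females replicate 1. These contrasts were called for 8.63%, 6.18% and 6.54% of all tested probe sets. R1 and S1 females were not called apart (-0.16 ± 0.13, adjusted p = 0.51), as 6.90% of all were. R2 females were 1.42-fold higher than S2 females (0.50 ± 0.13, adjusted p = 0.0187), which was called, as 7.82% of all were, so that the low lines also differed from each other in females. Of the first lines, R1 had a mean of 935.5 and S1 of 1049.9 in females, within or near the range of the control lines, 869.6 in C1 and 1073.9 in C2.

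The averages over regimes take in these lines. A contrast was called when its unadjusted p was below 0.05 and the line effect or the interaction had passed. Resistant and sensitive females were not called apart in *stau* (0.17 ± 0.0918, adjusted p = 0.33). Against controls, *stau* was lower in resistant females by a factor of 1.25 (-0.32 ± 0.0918, adjusted p = 0.0307) and in sensitive females by a factor of 1.41 (-0.49 ± 0.0918, adjusted p = 0.00329), and both were called. They were called against a background of 6.85% and 7.38% of all tested probe sets. Over both sexes the same contrasts were -0.26 ± 0.0649 and -0.36 ± 0.0649 and were also called. With the lines as a random block, so that the error included the spread between lines, they had adjusted p-values of 0.852 and 0.919 and neither was called. In a fit of the female arrays alone the line effect of *stau* had an adjusted p of 0.00138, above the threshold of 0.001, so that none of its contrasts in females was called, that of S1 against S2 included (adjusted p = 0.000583). In that fit 2.60% of probe sets had a called line effect.

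**Figure D3:**
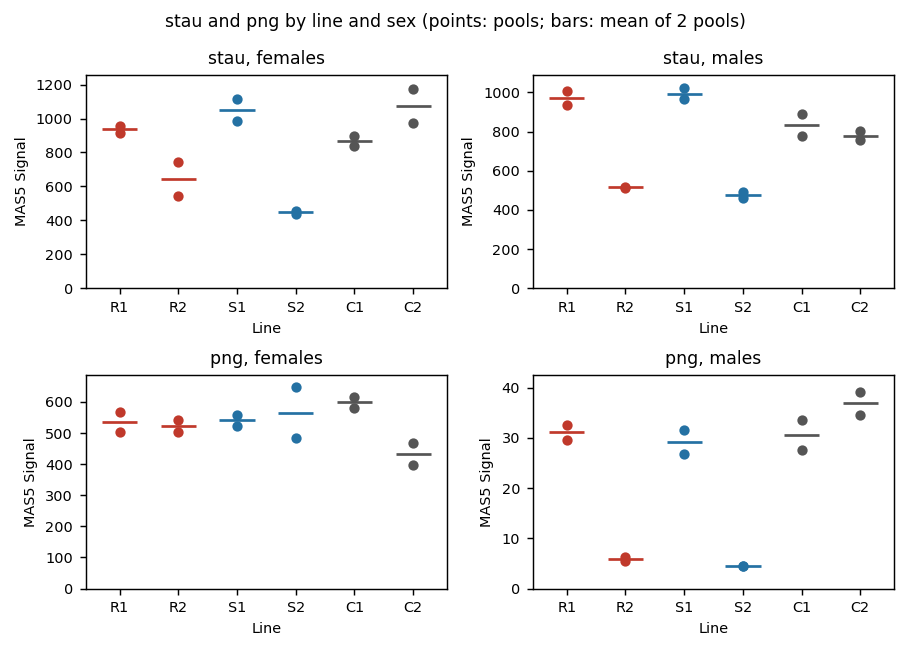
MAS5 Signal of *stau* (top) and *png* (bottom) in females and males by line; points are pools and bars the mean of 2 pools, and each axis starts at 0. *stau* was lowest in R2 and S2 in both sexes, and *png* in R2 and S2 males only, at levels below 50.

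*png* showed the same lines low in males, but at levels below the limit of 50. R2 males read 5.545 and 6.229 and S2 males 4.435 and 4.482. The 8 male pools of the other lines read 26.71 to 39.19, and no pool overlapped. In males 1.29% of tested probe sets had R2 and S2 below the other lines in this way. The female pools of *png* gave no such order, with means of 523.2 in R2 and 565.4 in S2 within the 433.8 to 598.7 of the other lines, and an adjusted p of 0.541 for the line effect.

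The line effect of *png* in males had an adjusted p of 1.08e-07 and the interaction of 2.73e-05. Averaged over both sexes, *png* was called lower in resistant than in control lines (-0.63 ± 0.114 on the log2 scale, adjusted p = 0.00169) and in sensitive than in control lines (-0.72 ± 0.114, adjusted p = 0.000471), against 7.86% and 8.58% of all tested probe sets. In females the same contrasts were 0.06 ± 0.161 and 0.11 ± 0.161. On the scale of log2(Signal + 50), which gives little weight to values this low, the line effect in males had an adjusted p of 0.00136, and none of these calls remained for *png*. With the lines as a random block the contrasts against control had adjusted p-values of 0.844 and 0.958.

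The third comparison, between lines selected in opposite directions, asked whether the genes differed between resistance and sensitivity. None of the 9 genes was called in females, in males or over both sexes, where 7.16%, 7.31% and 8.77% of all tested probe sets were. The median difference of the 9 genes in females was 0.10 on the log2 scale, against 0.03 over all. No gene had resistant and sensitive females that did not overlap, which 4.89% of all tested probe sets had. At an unadjusted p below 0.05, 0 of the 9 genes passed in each of these contrasts by limma, and by the methods' analysis of variance on Signal 1 gene, *nos*, passed in females (adjusted p = 0.0942) and over both sexes (adjusted p = 0.164). The difference between resistant and sensitive lines was not called different between the sexes in any of the genes, against 0.422% of all tested probe sets.

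The precision of this statement depended on which arrays set the error. The shared fit took 1 spread from both sexes, and for genes near 0 in males it was wide. *gnu* differed by 0.08 between resistant and sensitive females with an SE of 0.695, which became 0.107 when female arrays alone were fitted. In the latter fit the SE of the difference was between 0.0847 for *osk* and 0.129 for *otu* over the 9 genes, and no member was called, against 2.02% of probe sets in that fit. The differences ran from -0.08 for *osk* to 0.21 for *bcd*, and the adjusted p-values from 0.328 for *nos* to 0.959 for *exu*. *vas*, which entered the fit of female arrays, differed by 0.46 ± 0.203 (adjusted p = 0.258).

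**Figure D4:**
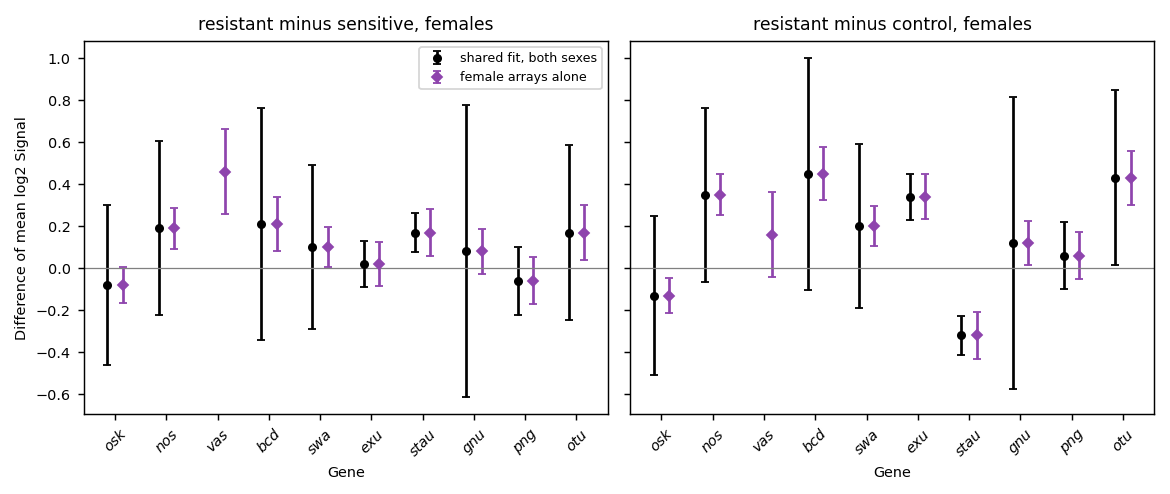
Difference of mean log2 Signal in females, resistant minus sensitive (left) and resistant minus control (right), for the first probe set of each gene; bars are the SE, from the fit shared by both sexes (circles) and from female arrays alone (diamonds, the only fit with *vas*). Resistant minus sensitive lay between -0.08 and 0.21 for the 9 genes other than *vas*, and *stau* was the lowest in resistant minus control, at -0.32.

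Against the unselected lines, resistant females were higher without overlap in *nos*, *exu* and *otu*. For *nos*, R1 females read 8304.8 and 7949.9 and R2 females 8723.1 and 9658, while the control pools read 6267.8 to 7038.3. For *exu*, R1 read 8836.4 and 7486.1 and R2 read 8288.4 and 8346.7, while the control pools read 5751.5 to 6878.2. For *otu*, R1 read 3828.8 and 4016.1 and R2 read 5002.1 and 4259.8, while the control pools read 2810.6 to 3477.3. In all 3 genes both resistant lines were thus above both control lines. Among all tested probe sets 9.94% had resistant females above control females in this way.

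The differences were 0.35 for *nos*, 0.34 for *exu* and 0.43 for *otu*, or 1.27-, 1.26- and 1.34-fold, and none was called. From female arrays alone their SE was 0.0987, 0.107 and 0.129, with adjusted p-values of 0.0502, 0.0687 and 0.0596. *bcd* differed by 0.45 ± 0.127 in that fit (adjusted p = 0.0488), with 1 control pool, at 2909, above the lowest resistant pool, at 2889.4, and was not called because its line effect did not pass. Contrasts of resistant and control females were called for 1.83% of probe sets in that fit. Sensitive and control females overlapped in every gene, in some of them through S1 females replicate 2 alone. Without this pool, looked at after the values had been seen, sensitive females were above all control pools in 5 of the 9 genes, *nos*, *exu*, *otu*, *bcd* and *swa*, as they were for 14.2% of all tested probe sets. The lowest of the other sensitive pools then read 7798.6 for *nos*, 8463.7 for *exu* and 3605.1 for *otu*. In these genes S1 females replicate 2 was thus the only sensitive pool not above all control pools. Leaving out a low pool makes such a separation easier, so nothing about the regimes is concluded from it. Markers of flight muscle moved with the same groups and summed to 2931 to 16710 in resistant females and 17426 to 38197 in control females. Follicle cell genes summed to 44729 to 67955 and 40074 to 50272 in these groups. The part of either in the result was not tested.

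**Figure D5:**
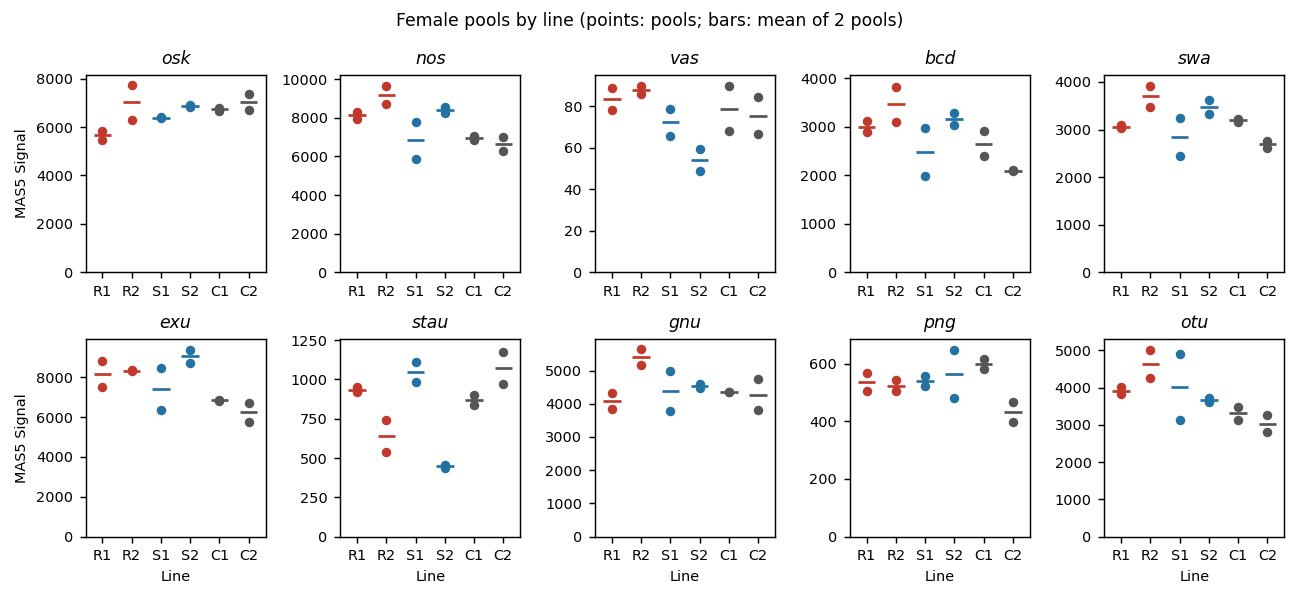
MAS5 Signal of the first probe set of each gene in female pools by line, with points for pools and bars for the mean of 2 pools; each axis starts at 0. The pools of S1 were apart in *nos*, *bcd*, *swa*, *exu*, *gnu* and *otu*, and both resistant lines were above both control lines in *nos*, *exu* and *otu*.

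The pools of S1 females differed in several genes at once. Replicate 1 read 7798.6 for *nos*, 2963.2 for *bcd*, 3246.9 for *swa*, 8463.7 for *exu*, 4986.9 for *gnu* and 4905.2 for *otu*. Replicate 2 read 5881.5, 1991.6, 2445.9, 6330.7, 3770.7 and 3140.1 for the same genes in the same order, and was lower in all 6. *osk* read 6365.6 and 6401.2 in these pools and *png* 559.4 and 524. The median difference over the 9 genes was 0.41 on the log2 scale, where the other female lines had -0.07 to 0.12. Flight muscle markers summed to 2511 in replicate 1 and 55320 in replicate 2. Follicle cell genes, by contrast, summed to 82411 in replicate 1 and 85692 in replicate 2, and yolk protein genes to 49797 and 66970. The part of any of these in the difference between the pools was not tested. Without replicate 2, resistant minus sensitive in females was 0.09 for *nos*, 0.07 for *bcd* and 0.00 for *otu*, in place of 0.19, 0.21 and 0.17.

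The second probe set of *bcd* had another line order than the first. It read 558.6 and 560.4 in S2 females and 192 to 415.2 in the other female pools, so that S2 was above every other line. On the first probe set S2 read 3282.4 and 3028.9, below the highest pool of R2 at 3823.8. Resistant minus sensitive in females was -0.33 ± 0.14 on the second and 0.21 ± 0.127 on the first in the fit of female arrays, and neither was called. The female line effect of the second had an adjusted p of 0.00778 there and 0.263 in the shared fit.

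Across the 12 female arrays the genes did not all vary together. The correlation of a gene's log2 Signal with the mean of the other 8 genes was 0.904 for *otu*, 0.809 for *bcd*, 0.783 for *swa*, 0.693 for *gnu*, 0.654 for *nos* and 0.552 for *exu*. It was 0.30 for *png*, -0.307 for *osk* and -0.594 for *stau*. These values describe 12 arrays of 6 lines that share line and pool, and much of the variation was small, with an SD of 0.135 for *osk* and 0.485 for *stau* on the log2 scale. The probe sets whose profile was most like the mean of the 9 genes were those of *Rnmt* (Pearson's r = 0.964), *Nxt1* (0.958), *HemK1* (0.951), *CG12236* (0.949) and *CG43759* (0.949), of 10566 compared over 12 arrays. Without S1 females replicate 2 these values were 0.932 to 0.956.

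Among the other genes of the lists, a line effect in females was called for 1 of 13 tested genes of dorsoventral and terminal patterning and for 1 of 14 of germline sex, stem cells and meiosis, shares close to the 6.95% of all tested probe sets. *Tl*, the receptor that sets the dorsoventral axis, had means of 4578.4 in R1, 5041.6 in R2, 3414.1 in S1, 5481.7 in S2, 3667.8 in C1 and 3535.8 in C2 females (adjusted p = 0.000538). *fl(2)d*, a splicing regulator required for female-specific splicing, had means of 1042.9, 1377.9, 814.7, 1373, 777.2 and 951.5 in the same order (adjusted p = 8.16e-05). The mean of S1 was below that of both resistant lines in each gene, and the mean of S2 was above that of R1. The lists of egg activation, of posterior patterning and of mRNA transport held no gene with a called line effect in females. Over both sexes, 1 of 13 mRNA transport genes, 1 of 12 posterior patterning genes and 0 of 14 egg activation genes had one, against 12.3% of all. Resistant against sensitive in females was called for 1 mRNA transport gene, lower, and 1 germline gene, higher, against 7.16% of all. Of 9 male accessory gland markers 2 had a called line effect in females, with female line means of 0.8882 to 18.14, far below 50.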

How the data were processed

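Biotinylated cRNA from 24 pools of whole flies was hybridized to Affymetrix Drosophila 2.0 arrays. The authors deposited one intensity for each of 18952 probe sets and array, the MAS5 Signal on a linear scale, which mixes perfect-match and mismatch probes and is unreliable near 0. No detection calls were used here. Of the probe sets, 183 array controls were left out, 13647 were paired with 1 gene symbol by the platform annotation, 402 with several and 4720 with none. *nos* was found under the symbol *nanos*. A gene with several probe sets was represented by the one with the highest mean log2 Signal, and the others were given beside it. The number of arrays limits the precision.

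Signal was raised to a floor of 1 and log2 transformed without further scaling. Probe sets with a Signal of at least 50 on at least 12 arrays were fitted in R 4.3.3 with limma 3.58.1 (lmFit, eBayes with an intensity trend), with a separate mean for every combination of line and sex. The line, interaction and sex effects were called at a Benjamini-Hochberg adjusted p below 0.001 over all 11857 probe sets. Following the study's methods, a contrast was called when its own p was below 0.05 and the probe set had also passed for line or for the interaction. Differences of a contrast between the sexes were called at an adjusted p below 0.05. The steps were tested on simulated data. The labels do not say more of the replicates than that they are separate pools of flies, so p-values measure the spread between pools. Replicate numbers did not pair the arrays (correlations of deviations -0.15 to 0.176 over 66 pairs, median 0.0107).

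Alternatives changed the log scale, the filter, the normalization, the variance trend, the test (a analysis of variance of untransformed Signal, as in the methods), the arrays fitted, the error (line as a random block, line means) and the probe set, and left out each array in turn. The 10 genes and the lists were chosen with earlier results of these data known. All 10 genes are described, and of the other lists at most 3 genes with a called female line effect. Marker lists are given by their summed Signal.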

Additional observations from a re-analysis of the deposited data

Results flagged for a closer look

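The line by sex interaction of *png* passed the threshold (adjusted p = 2.73e-05). R2 and S2 males read 4.435 to 6.229 and the other males 26.71 to 39.19, all below 50, while females read 398.6 to 648.3. The call was lost with log2(Signal + 50) (adjusted p = 0.0193) and in the analysis of variance on Signal (adjusted p = 0.277).

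Single arrays stood apart from the other 3 of their group in 2 of 51 groups examined, where chance alone gives about 1 in 20 groups. C2 females replicate 1 was low for *exu* on its first probe set, at 5751 against 6712 to 6878 (gap over range 0.864). R1 males replicate 2 was high for *exu* on its second probe set, at 8246 against 7154 to 7291 (gap over range 0.866).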

How the results depend on the processing

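Counts here are of the members called among the 9 tested. With log2(Signal + 50) and with the analysis of variance on Signal, the line effect, the line effect in males, resistant against control and sensitive against control over both sexes each fell from 2 to 1, and the interaction from 1 to 0, because *png* was lost. With line as a random block both of these contrasts against control fell to 0. From female arrays alone, the line effect in females, resistant and sensitive against control in females, and line 1 against line 2 within a selection group each fell from 1 to 0. Without the variance trend, resistant against sensitive in males rose from 0 to 1 (*png*, 0.25) and line 1 against line 2 from 1 to 2, as it did with quantile normalization within each sex. Leaving out each array in turn gave 0 to 1 genes for resistant against sensitive over both sexes, in females and in males. *stau* was called over both sexes (0.16) and in females (0.28) without R2 females replicate 2, and *nos* over both sexes (0.72) and in males (1.25) without S1 males replicate 2, where *nos* was below 50 in all male pools. Among values called in the shared fit, 2 changed sign, while values that were not called could take either sign. Sensitive minus control in *png* was 10.2 in Signal units by the analysis of variance, and the sex difference of *exu* was -6.90 on the other probe set. Of the values for single genes, 4591 kept their side of the threshold, 22 lost it and 12 gained it. With the replicate block, the count for resistant against sensitive in females was 0 and no count of called genes moved, with 8 genes for sex, 2 for line and 1 for the interaction. Levels below 50, in males above all, are unreliable. The R2 and S2 male pools of *png* lay below all other male pools at such levels, but its line and interaction calls were lost with log2(Signal + 50).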
